A study of Caenorhabditis elegans with 8 samples.

Results

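The comparison set out here is the response of adult Caenorhabditis elegans to cholesterol deprivation, taken over fed and fasted worms together. It used all 8 arrays of the study, the 4 arrays of worms kept without cholesterol against the 4 of worms given it, with feeding state and replicate number as covariates. All worms were of the laboratory strain N2. Deprivation began at hatching. On reaching young adulthood every group went onto FUDR plates (FUDR blocks DNA synthesis and with it the production of progeny), so the drug was present with and without cholesterol alike. There were 4 groups of 2 arrays: fed worms with cholesterol, fasted worms with cholesterol, fed worms without cholesterol and fasted worms without cholesterol, all taken on day 4 of adulthood. The fast lasted 24 h by the source names and 48 h, begun on day 2 of adulthood, by the treatment protocol. The replicates are called independent, with no word on separate cultures, so the p values measure the spread between these samples, which may be technical. RNA came from whole worms, and fewer cells of a type and less RNA per cell cannot be told apart. Cholesterol left over from the egg or from the food was not measured in the sources used here.

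As background, the worm cannot build the sterol ring and takes up cholesterol from its food. Little of it serves as bulk membrane lipid. It is carried by vitellogenins and by Niemann-Pick C1 proteins, is methylated by STRM-1, and is the starting material of dafachronic acids, the steroid hormones made by DAF-36 and DAF-9 that bind the nuclear receptor DAF-12. Adult physiology is also set by DAF-16, the FOXO transcription factor held out of the nucleus by insulin signalling, whose targets include genes for stress defence, metal binding and fat metabolism.

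The deposited values are RMA intensities, and a level below means log2(signal + 1). A change is the level without cholesterol minus the level with it, on the log2 scale, with the standard error (SE) of a limma fit over the 8 arrays (n = 4 against 4). "Rose" and "fell" mean an adjusted p under 0.05, Benjamini-Hochberg over 22548 probe sets. Array medians were 66.7 to 70.9 in linear signal. The fit was also run 8 times with 1 array left out. Where a gene did not pass in all 8 of these left-out fits, the number it passed follows its p, as in "5 of 8", and an array is named as, for example, fasted deprived 1 (the first replicate of fasted worms without cholesterol). Of the defining markers written down for 8 tissues, all were on the array. The lowest value of the whole table was 7.49, so no marker could be at 0. Intestinal, muscle, neuronal, epidermal, germline and oocyte markers each lay above the lower quartile of all values (4.69 in log2 units). Below it were 1 of 6 sperm and 2 of 6 embryo markers. With no detection call, these levels do not show which markers were above background. The median change over all 17118 genes was 0.00.

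In all, 539 of 17118 genes rose (3.15%) and 546 fell (3.19%), or 6.34% in either direction. By probe set, 643 rose (2.85%) and 714 fell (3.17%), 1357 in all (6.02%). Among the rises, 280 were under 1.5-fold, 165 were between 1.5-fold and 2-fold, 94 were at least 2-fold and 16 at least 4-fold, with a median of 0.57. Among the falls, the same classes held 212, 226, 108 and 7 genes, and the median size was 0.67. For each gene, deprived minus undeprived arrays of the same feeding state and replicate number gave 4 matched differences. All 539 rises and 545 of 546 falls had the same sign in the 4, gst-29 being the exception, beside 14.3% of all genes higher and 12.3% lower in all 4. The 4 deprived and 4 undeprived arrays did not overlap in 298 of the rises and 229 of the falls, beside 3.68% and 2.5% of all genes. The genes were called on these same arrays, so shared signs and lack of overlap follow largely from the calling. They are no separate evidence. Feeding state, fitted beside deprivation, moved 224 of the rises and 283 of the falls as well, by the same threshold. The share of all genes moved by feeding state was not counted. These 2 counts therefore show no particular overlap between the responses.

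The number of calls depended on single arrays and on the replicate term, more than the directions did. Without the replicate number as a block, 731 probe sets passed instead of 1357. Leaving out fasted deprived 1 gave 437, fed deprived 1 596, fed undeprived 2 643, fed deprived 2 665, fasted undeprived 2 713 and fasted undeprived 1 780. Without fed undeprived 1 the count was 905 and without fasted deprived 2 it was 1484. A core of 169 rises and 115 falls passed in every left-out fit.

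The largest fitted rise was in R07C12.1, a gene with no role given in the annotation used here. R07C12.1 had levels of 3.98 and 3.99 in fed and 3.90 and 4.32 in fasted worms with cholesterol, against 7.46 and 6.96 in fed and 8.36 and 8.14 in fasted worms without it. The groups lay far apart, and its signal with cholesterol was below the lower quartile of all values in every array. Its change was 3.68 ± 0.21, adjusted p = 0.000172. With no detection call, its signal with cholesterol is not known to be above background, so the size of its rise and its rank are uncertain. T05E12.3 had levels of 9.66 and 9.10 in fed and 9.41 and 9.25 in fasted worms with cholesterol, against 11.62 and 11.11 in fed and 12.01 and 11.78 in fasted worms without it. All 4 deprived arrays were above all 4 undeprived ones, with little influence of food, and the change was 2.28 ± 0.13, adjusted p = 0.000193. F19C7.2 also kept its groups apart, at 6.63 and 6.40 in fed and 7.75 and 7.33 in fasted worms with cholesterol, against 9.86 and 8.96 in fed and 10.32 and 9.78 in fasted worms without it, a change of 2.70 ± 0.13, adjusted p = 9.23e-05.

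best-1 encodes a bestrophin, a family of chloride channels. Its levels were 6.53 and 6.65 in fed and 7.49 and 8.70 in fasted worms with cholesterol, against 9.35 and 9.67 in fed and 9.65 and 10.16 in fasted worms without it. The deprived arrays again all exceeded the others, by 2.36 ± 0.25, adjusted p = 0.00236. ins-7 encodes an insulin-like peptide that signals through the DAF-2 receptor and whose gene DAF-16 represses. ins-7 read 8.73 and 8.64 in fed and 4.58 and 5.02 in fasted worms with cholesterol, against 10.80 and 10.07 in fed and 7.64 and 7.79 in fasted worms without it. Fasting lowered it and deprivation raised it in each feeding state, so the groups overlapped across food but not within it, and the change was 2.33 ± 0.26, adjusted p = 0.00304.

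Of the 10 largest rises, 5 differed in size between feeding states. T22F3.11 and C23G10.11 rose mostly in fed worms. The effect on T22F3.11 was 4.88 in fed and 1.48 in fasted worms, interaction adjusted p = 0.0422, beside a common change of 3.18 ± 0.64, adjusted p = 0.0256, 4 of 8. A second T22F3.11 probe set gave a common change of 1.96, adjusted p = 0.03. That on C23G10.11 was 4.23 in fed and 1.24 in fasted worms, interaction adjusted p = 0.0247, beside 2.74 ± 0.55, adjusted p = 0.0252, 2 of 8. The reverse held for cyp-13A5, a cytochrome P450, for F14H12.3 and for srlf-3. The effects on cyp-13A5 were 1.27 in fed and 4.10 in fasted worms, interaction adjusted p = 0.0389. Those on F14H12.3 were 1.64 in fed and 3.64 in fasted worms, interaction adjusted p = 0.00444, and those on srlf-3 were 1.17 in fed and 3.23 in fasted worms, interaction adjusted p = 0.00375. Their common changes were 2.69, adjusted p = 0.0235, 4 of 8 for cyp-13A5, 2.64, adjusted p = 0.00627 for F14H12.3 and 2.20, adjusted p = 0.0134, 7 of 8 for srlf-3.

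**Figure D1:**
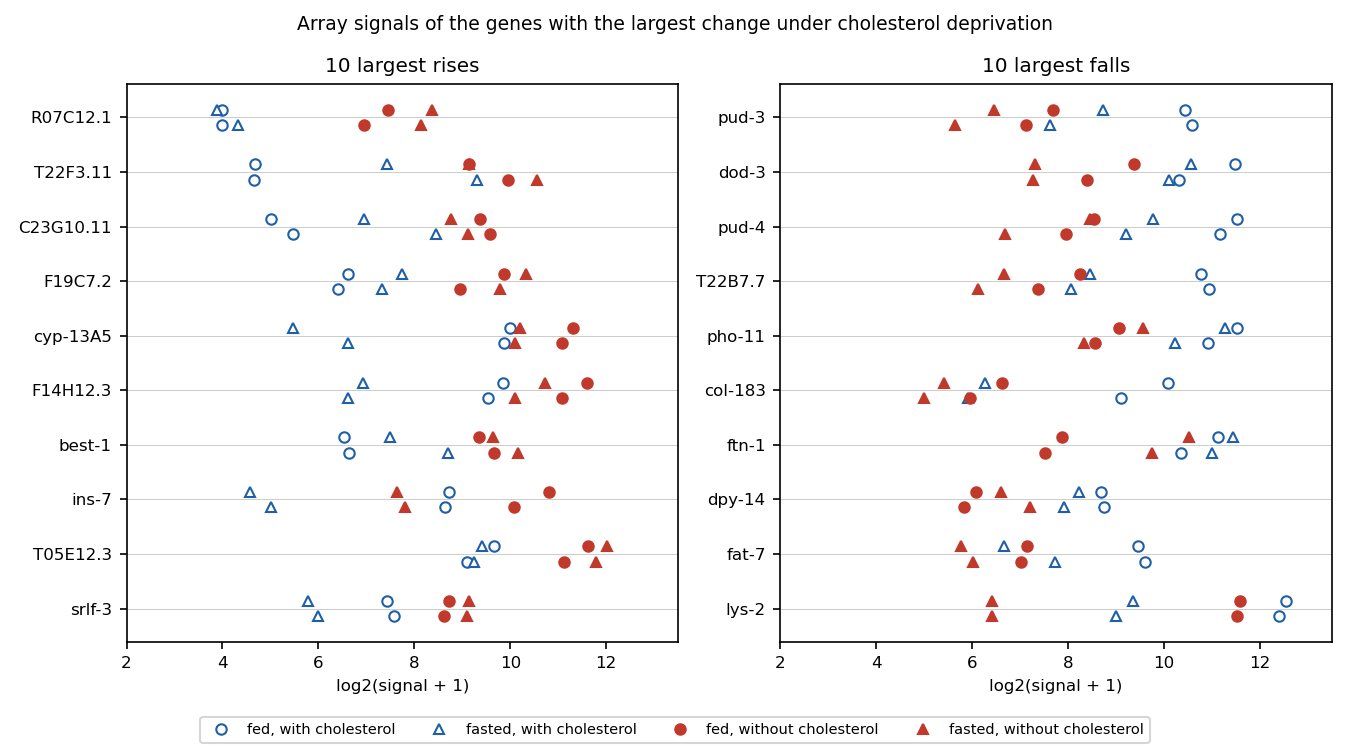
Levels, as log2(signal + 1) on the x axis, of the 10 largest rises and the 10 largest falls, 1 row per gene and 1 point per array (open blue with cholesterol, filled red without it, circles fed, triangles fasted, replicate 1 above replicate 2). In R07C12.1, T05E12.3 and pho-11 the red and blue points separate in both feeding states, while in ins-7 and lys-2 the fed and fasted pairs lie apart and deprivation shifts each.

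The largest fall was in pud-3, with its near relative pud-4 close behind. Both are named as genes whose products are more abundant in mutants of the insulin receptor gene daf-2, where DAF-16 is active. pud-3 had levels of 10.44 and 10.58 in fed and 8.72 and 7.63 in fasted worms with cholesterol, against 7.69 and 7.12 in fed and 6.46 and 5.64 in fasted worms without it. It fell in both feeding states, and fasting lowered it too, so that fed deprived and fasted undeprived arrays lay close together. The change was -2.61 ± 0.24, adjusted p = 0.00125 in pud-3 and -2.50 ± 0.29, adjusted p = 0.00351 in pud-4. Near-identical genes can share probes, so these may not be separate measurements. dod-3, a gene found downstream of DAF-16, read 11.47 and 10.32 in fed and 10.56 and 10.10 in fasted worms with cholesterol, against 9.38 and 8.40 in fed and 7.30 and 7.26 in fasted worms without it. Every deprived array was below every undeprived one, by -2.53 ± 0.24, adjusted p = 0.00147.

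pho-11 belongs to the acid phosphatases, which include enzymes secreted into the gut. Its levels were 11.53 and 10.92 in fed and 11.27 and 10.22 in fasted worms with cholesterol, against 9.06 and 8.55 in fed and 9.56 and 8.33 in fasted worms without it. The groups did not overlap, and it fell by 2.11 ± 0.16, adjusted p = 0.000632. fat-7 encodes a stearoyl-CoA desaturase, which makes oleic acid. fat-7 stood at 9.45 and 9.60 in fed and 6.67 and 7.72 in fasted worms with cholesterol, against 7.14 and 7.02 in fed and 5.76 and 6.01 in fasted worms without it. Deprivation lowered it within each feeding state, by 1.88 ± 0.26, adjusted p = 0.00643 in common. T22B7.7 behaved likewise, at -2.45 ± 0.25, adjusted p = 0.00206.

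Other large falls belonged to genes of iron storage, cuticle and defence. ftn-1, a ferritin heavy chain gene and a target of DAF-16, changed by -2.06 ± 0.35, adjusted p = 0.0146, with effects of -3.04 in fed and -1.08 in fasted worms, interaction adjusted p = 0.00853. lys-2, a lysozyme gene, changed by -1.84 ± 0.33, adjusted p = 0.0172, 6 of 8, with effects of -0.91 in fed and -2.76 in fasted worms, interaction adjusted p = 0.00665. The cuticle collagen gene dpy-14 changed by -1.96 ± 0.31, adjusted p = 0.0113. The collagen gene col-183 changed by -2.09 ± 0.43, adjusted p = 0.0285, 2 of 8, with effects of -3.31 in fed and -0.87 in fasted worms, interaction adjusted p = 0.00665. So the fall of ftn-1 and col-183 was larger in fed worms and that of lys-2 larger in fasted worms, by a test of the difference itself.

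Many of the calls were small changes. Their recurrence in each pair of arrays follows largely from the calling, which used these same arrays. Of the 280 rises under 1.5-fold, all had the same sign in the 4 matched differences, 133 had no overlap between deprived and undeprived arrays, and 161 passed in neither feeding state alone. Of the 212 falls under 1.5-fold, the counts were 212, 86 and 123. They were also the calls that leaned most on the design. Only 15 of the small rises and 7 of the small falls passed in every left-out fit, and 106 and 62 passed without the replicate block.

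kin-36, named as a protein kinase gene, was among the small rises with the smallest p. kin-36 read 6.03 and 6.15 in fed and 6.16 and 6.09 in fasted worms with cholesterol, against 6.63 and 6.65 in fed and 6.75 and 6.71 in fasted worms without it, with matched differences from 0.50 to 0.62. Its change was 0.58 ± 0.07, adjusted p = 0.00558. kgb-1 encodes a JNK-like MAP kinase that acts in stress signalling. It read 6.82 and 6.90 in fed and 6.58 and 6.71 in fasted worms with cholesterol, against 7.35 and 7.36 in fed and 7.29 and 7.19 in fasted worms without it. Neither gene overlapped between deprived and undeprived arrays, and the change of kgb-1 was 0.55 ± 0.08, adjusted p = 0.0074. pbo-1, a calcineurin-B-like protein of the intestine, rose by 0.57 ± 0.08, adjusted p = 0.00694 (a second, dimmer probe set gave 0.55, adjusted p = 0.0734), and slc-28.2, of the nucleoside transporter family SLC28, by 0.56 ± 0.08, adjusted p = 0.00634. K02C4.5 and F07C6.2, which carry no role in the annotation, rose by 0.56 and 0.53.

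On the falling side, ipla-7 encodes a calcium-independent phospholipase A2. ipla-7 read 9.53 and 9.08 in fed and 9.15 and 8.56 in fasted worms with cholesterol, against 9.10 and 8.60 in fed and 8.54 and 8.04 in fasted worms without it. The fed arrays overlapped slightly across replicates, although each deprived array was below its match, and the change was -0.51 ± 0.07, adjusted p = 0.00833. A second ipla-7 probe set gave -0.47, adjusted p = 0.0604. ttm-2, a gene first described as a target of MAP kinase signalling after exposure to a pore-forming toxin, changed by -0.53 ± 0.08, adjusted p = 0.00796. B0454.5, W03G11.4, T24E12.11 and W05H9.3 changed by -0.57, -0.52, -0.52 and -0.58. All 12 of these small changes passed in every left-out fit.

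**Figure D2:**
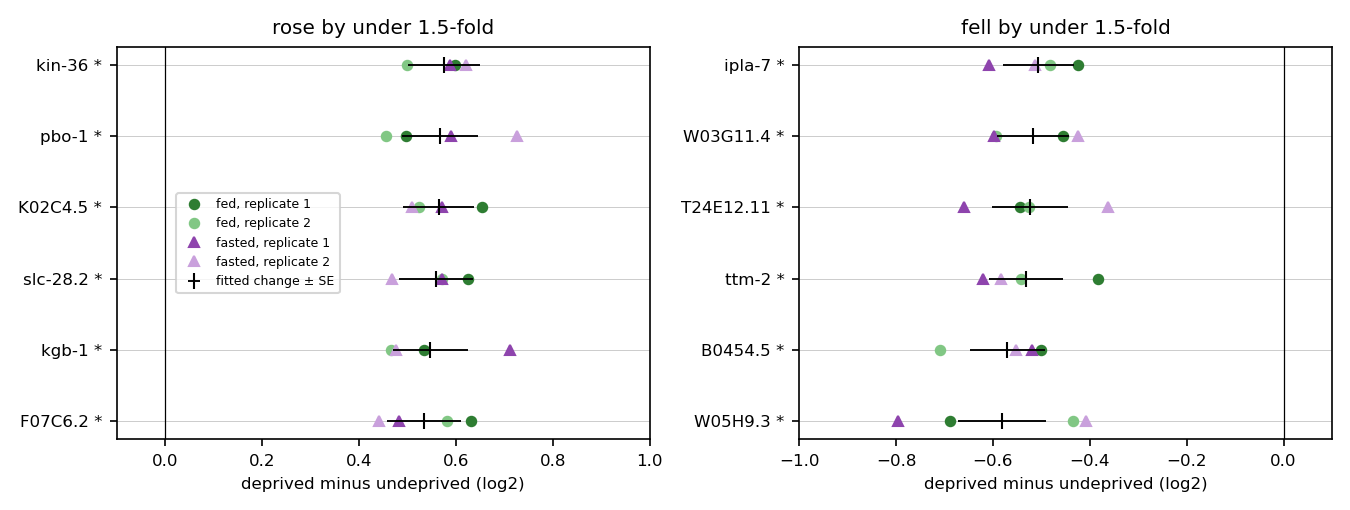
The 4 matched differences (points) and the fitted change ± SE (cross) of the 6 small rises and 6 small falls with the smallest p, on the log2 scale, with fed pairs as circles and fasted pairs as triangles. Every point lies on one side of 0, as the selection of these genes required. The fitted changes are between 0.53 and 0.58 for the rises and between -0.58 and -0.51 for the falls.

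Genes that DAF-16 is known to activate had the highest share of falls among the 44 gene lists. Of 21 such genes on the array, 11 fell, none rose and 10 did neither, with a median change of -0.72, beside a background of 3.19% of genes that fell. Their number was 7 without fasted deprived 1, fed deprived 1 or fed undeprived 2, and 7 without the replicate block. The lists were drawn up with results of these data known, so the count describes the list and tests nothing. dod-6 was found downstream of DAF-16. Its levels were 11.28 and 10.42 in fed and 11.76 and 11.12 in fasted worms with cholesterol, against 9.75 and 9.07 in fed and 9.52 and 9.14 in fasted worms without it. No deprived array reached an undeprived one of the same feeding state, and the change was -1.78 ± 0.15, adjusted p = 0.000835.

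mtl-1, a metallothionein, had levels of 11.69 and 10.57 in fed and 11.47 and 11.08 in fasted worms with cholesterol, against 10.30 and 8.97 in fed and 10.56 and 9.40 in fasted worms without it. All 4 deprived arrays were lower, and its change was -1.39 ± 0.15, adjusted p = 0.00255. Without the replicate block mtl-1 did not pass. The saposin-like antimicrobial gene spp-1 changed by -1.37 ± 0.15, adjusted p = 0.00315, but a second, dimmer spp-1 probe set gave -0.05, adjusted p = 0.869. nnt-1, the mitochondrial nicotinamide nucleotide transhydrogenase, changed by -1.21 ± 0.16, adjusted p = 0.00616, and fat-5, a palmitoyl-CoA desaturase, by -1.03 ± 0.14, adjusted p = 0.0074. The other falls were dod-3 and ftn-1, described above, and weaker calls in scl-20 (-0.99, adjusted p = 0.0192, 5 of 8), hsp-16.2 (-1.28, adjusted p = 0.0379, 1 of 8), the superoxide dismutase gene sod-3 (-0.72, adjusted p = 0.0407, 2 of 8) and the linker histone gene hil-1 (-0.42, adjusted p = 0.0341, 1 of 8). nnt-1, scl-20, sod-3 and hil-1 are named here after their values were seen, to complete the list.

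The 10 DAF-16-activated genes that passed in neither direction had changes from -0.77 to 0.46. aqp-1, an aquaglyceroporin, and icl-1, the glyoxylate cycle enzyme, were higher without cholesterol in both fed pairs and lower in both fasted pairs. The aqp-1 effects were 2.07 in fed and -1.14 in fasted worms, interaction adjusted p = 0.00284, and the icl-1 effects were 0.90 in fed and -0.30 in fasted worms, interaction adjusted p = 0.0305; both genes were picked out after their values were seen.

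Genes that DAF-16 represses did not move as one. Of 15, 3 rose and 1 fell, with a median of -0.01, beside a background of 3.15% for rises. ins-7 rose, as given above. dod-23 had levels of 11.18 and 11.51 in fed and 10.30 and 9.73 in fasted worms with cholesterol, against 13.44 and 13.24 in fed and 11.62 and 11.39 in fasted worms without it. Its deprived arrays were higher within each feeding state, with a change of 1.74 ± 0.16, adjusted p = 0.00112. pept-1, the intestinal transporter of small peptides, had levels of 6.07 and 6.12 in fed and 6.80 and 6.77 in fasted worms with cholesterol, against 7.94 and 7.80 in fed and 8.05 and 7.79 in fasted worms without it, also without overlap, and changed by 1.45 ± 0.14, adjusted p = 0.00133. dod-24 went the other way, at -1.31 ± 0.10, adjusted p = 0.000632. The yolk gene vit-2, on the same list, changed by 0.00, adjusted p = 0.995.

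**Figure D3:**
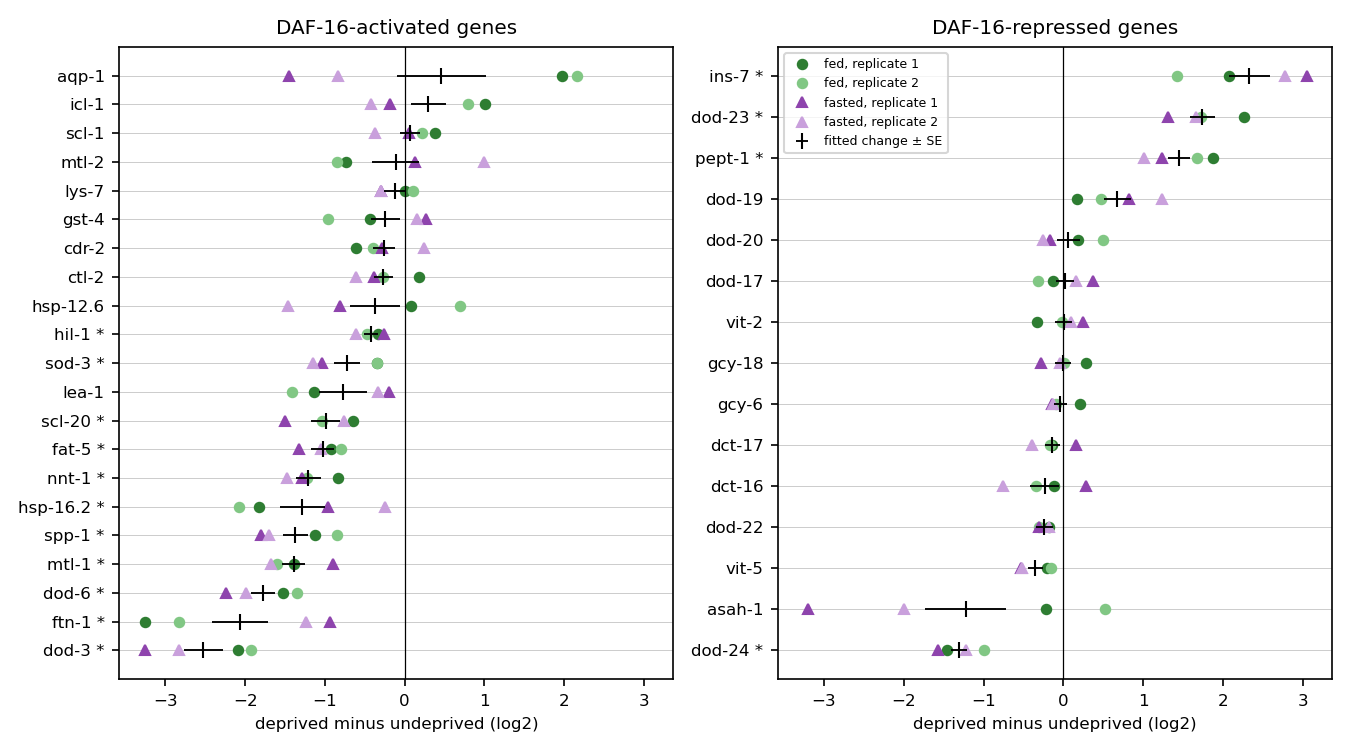
Matched differences (points, fed pairs as circles, fasted pairs as triangles) and fitted change ± SE (cross) of every gene on the DAF-16-activated and DAF-16-repressed lists, on the log2 scale, with an asterisk for an adjusted p under 0.05. The activated genes lie mostly left of 0 in both feeding states, while aqp-1, icl-1 and hsp-12.6 split by feeding state.

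Genes that carry sterols gave 1 call. Of 14 genes of sterol uptake, transport and esterification, only ncr-1 rose (7.14%) and none fell, beside 3.15% and 3.19% of all genes. The median was 0.08. Under cyclic loess, centring on the brighter probe sets, or a trended and robust prior, 1 member of the list fell. ncr-1 encodes a Niemann-Pick C1 protein, a family that moves cholesterol out of endosomes. ncr-1 read 7.02 and 7.27 in fed and 7.77 and 7.58 in fasted worms with cholesterol, against 7.82 and 7.76 in fed and 8.13 and 7.99 in fasted worms without it. Deprivation raised it in each of the 4 pairs, by 0.52 ± 0.10, adjusted p = 0.0233, 3 of 8. Its relative ncr-2 changed by 0.08, adjusted p = 0.72.

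The yolk receptor gene rme-2 changed by -0.03, adjusted p = 0.94 and the lipoprotein receptor gene lrp-1, which is needed for growth on limiting sterol, by 0.13, adjusted p = 0.453. The oxysterol-binding protein relatives obr-1, obr-2, obr-3 and obr-4 changed by 0.07, -0.46, -0.24 and 0.16. None of the 4 passed, obr-2 having the lowest adjusted p of 0.0667. heh-1, related to the vertebrate NPC2 protein, changed by -0.49, adjusted p = 0.0855, with all 4 differences below 0. dsc-4, the microsomal triglyceride transfer protein, changed by -0.24, adjusted p = 0.281. The remaining members, chup-1, mboa-1, mboa-2 and strl-1, changed by 0.03 to 0.16. Without fasted deprived 2 or fed undeprived 1, 1 member of the list fell.

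Among 15 genes of sterol modification, dafachronic acid synthesis and reception, 2 rose (13.3%) and 1 fell (6.67%), beside 3.15% and 3.19% of all genes. strm-1, the sterol methyltransferase that draws sterols away from hormone synthesis, had levels of 5.53 and 5.24 in fed and 5.03 and 4.89 in fasted worms with cholesterol, against 5.89 and 5.71 in fed and 6.02 and 5.86 in fasted worms without it. The groups did not overlap and the change was 0.70 ± 0.12, adjusted p = 0.0156, 6 of 8. stdh-1, of the steroid dehydrogenase family, had levels of 10.57 and 9.94 in fed and 10.53 and 10.30 in fasted worms with cholesterol, against 9.69 and 8.79 in fed and 9.78 and 9.28 in fasted worms without it. The deprived arrays were all lower, by -0.95 ± 0.11, adjusted p = 0.00353. Without the replicate block stdh-1 did not pass, and 0 of the 15 genes fell. dhs-16, a dehydrogenase of dafachronic acid synthesis, changed by 0.48 ± 0.10, adjusted p = 0.0297, 2 of 8, without overlap. The number of rises was 0 to 1 without fasted deprived 1, fasted undeprived 1, fasted undeprived 2, fed deprived 1, fed deprived 2 or fed undeprived 1.

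Other members of the hormone pathway did not pass. daf-36, the Rieske oxygenase at its first step, changed by 0.18, adjusted p = 0.265. daf-9, the cytochrome P450 at its last step, changed by -0.01, adjusted p = 0.979. Their receptor gene daf-12 changed by 0.06, adjusted p = 0.818, and its co-repressor gene din-1 by -0.25, adjusted p = 0.277. nhr-8, a nuclear receptor gene of the same subfamily that is needed for normal cholesterol handling, was higher in all 4 deprived arrays, at 0.31, adjusted p = 0.0715. nhr-48 of that subfamily changed by 0.00, adjusted p = 0.999. The remaining members hsd-1, hsd-2, emb-8, stdh-2, stdh-3 and stdh-4 changed by 0.00 to 0.28. hsd-1, hsd-2 and stdh-4 had both fed differences above 0 and both fasted ones below, as did daf-9.

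The mevalonate pathway, which in the worm serves isoprenoids and not sterols, gave no call by limma among 16 genes, 4 of which had an unadjusted p under 0.05, and its median was 0.04. The rate-limiting reductase gene hmgr-1 changed by -0.11, adjusted p = 0.643 and the synthase gene hmgs-1 by -0.26, adjusted p = 0.191. mvk-1, idi-1 and fdps-1 changed by 0.13, 0.12 and 0.10. sbp-1, the SREBP transcription factor gene, was higher in each of the 4 pairs but missed the threshold, at 0.30, adjusted p = 0.0519. scp-1, the SCAP homologue that escorts it, changed by -0.26, adjusted p = 0.429. The prenyltransferase genes fntb-1, fnta-1 and ggtb-1 changed by -0.29, 0.04 and -0.09. Among ubiquinone genes, coq-1 changed by -0.34, adjusted p = 0.0862 at its brighter probe set, and a dimmer coq-1 probe set fell by 0.64, adjusted p = 0.0401. coq-2, coq-3, coq-4, coq-6 and coq-8 changed by 0.01 to 0.17.

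Fatty acid desaturation and elongation genes gave mostly falls where they passed. Of 30 genes of fatty acid synthesis and its regulators, 6 fell (20%) and 1 rose (3.33%), with a median of -0.07. The shares over all genes were 3.19% and 3.15%. The falls were fat-7 and fat-5, given above, and the elongases elo-2, elo-4, elo-5 and elo-6, at -0.61, -0.46, -0.56 and -0.74. For elo-4 the levels were 6.64 and 6.91 in fed and 6.40 and 6.66 in fasted worms with cholesterol, against 6.13 and 6.27 in fed and 6.04 and 6.31 in fasted worms without it. Its change was -0.46 ± 0.08, adjusted p = 0.0162, 4 of 8. elo-2, elo-5 and elo-6, named after their values were seen, passed in 3, 3 and 4 of 8 left-out fits. The falls in the list were 2 to 3 without fasted deprived 1, fasted undeprived 2 or fed deprived 2. hlh-30, the TFEB homologue that controls lysosomal and fat genes, rose by 0.85 ± 0.16, adjusted p = 0.0202, 5 of 8, while its other probe sets gave 0.55, adjusted p = 0.00902 and -0.06, adjusted p = 0.899.

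Fatty acid oxidation showed fewer calls. Of 64 genes of fatty acid activation and oxidation, 2 rose (3.1%) and 1 fell (1.56%), beside 3.15% and 3.19% of all genes. The median was -0.01. acdh-1, a mitochondrial acyl-CoA dehydrogenase, changed by -0.90 ± 0.18, adjusted p = 0.0236, 3 of 8. The peroxisomal oxidase gene acox-1.1 changed by 0.43 ± 0.09, adjusted p = 0.0332, 0 of 8, and the acyl-CoA synthetase gene acs-7 by 0.46 ± 0.11, adjusted p = 0.0488, 2 of 8. Among 30 lipase and lipid droplet genes, the lysosomal lipase genes lipl-2, lipl-4 and lipl-5 fell, 10% of the list. lipl-2 read 8.66 and 7.78 in fed and 6.85 and 6.90 in fasted worms with cholesterol, against 7.31 and 6.73 in fed and 5.19 and 5.20 in fasted worms without it, a change of -1.44 ± 0.17, adjusted p = 0.00389. lipl-4, whose product acts in lysosomal lipid signalling, changed by -1.19 ± 0.19, adjusted p = 0.0114, and lipl-5 by -1.01 ± 0.19, adjusted p = 0.0208, 5 of 8. lips-15 rose by 0.58 ± 0.10, adjusted p = 0.0152, 4 of 8.

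Of the 5 vitellogenins measured, which carry yolk lipid and sterol to oocytes, vit-1 and vit-4 fell. vit-1 had levels of 11.56 and 12.04 in fed and 9.60 and 9.47 in fasted worms with cholesterol, against 10.29 and 10.30 in fed and 8.86 and 8.35 in fasted worms without it. It overlapped across food but fell within each state, by 1.22 ± 0.17, adjusted p = 0.00749. vit-4 changed by -0.39 ± 0.08, adjusted p = 0.0223, 2 of 8 at its brightest probe set, and its other probe sets gave -0.48, adjusted p = 0.0131 and -1.37, adjusted p = 0.00534. Yolk genes resemble each other closely, so probes may be shared among them. Of 17 fatty acid and retinol binding protein genes, 3 rose (17.6%) and 1 fell (5.88%), beside 3.15% and 3.19% of all genes. The rises were far-6 (0.65, adjusted p = 0.00318), lbp-5 (0.87, adjusted p = 0.0143, 6 of 8) and far-7 (1.37, adjusted p = 0.0404, 2 of 8), and far-8 fell (-0.62, adjusted p = 0.0418, 1 of 8).

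In sphingolipid metabolism, 1 of 23 genes rose (4.35%) and 2 fell (8.70%), beside 3.15% and 3.19% of all genes. sptl-2, a subunit of serine palmitoyltransferase, the entry enzyme of the pathway, had levels of 6.44 and 6.75 in fed and 6.20 and 6.28 in fasted worms with cholesterol, against 7.58 and 7.65 in fed and 7.24 and 7.08 in fasted worms without it. The 4 deprived arrays were all above the other 4, and the change was 0.97 ± 0.09, adjusted p = 0.00132. The acid sphingomyelinase genes asm-3 and asm-2 fell, by 1.08 ± 0.17, adjusted p = 0.0113, 7 of 8, and by 1.79 ± 0.34, adjusted p = 0.0211, 5 of 8. In the methionine cycle and phosphatidylcholine synthesis, 2 of 23 genes fell (8.70%) and none rose. pmt-2, a phosphoethanolamine methyltransferase on the route to phosphatidylcholine, changed by -0.60 ± 0.08, adjusted p = 0.00516, and cth-2, a cystathionine gamma-lyase, by -0.53 ± 0.10, adjusted p = 0.0233, 3 of 8. The medians of the lipid binding, sphingolipid and phosphatidylcholine lists lay close to 0 and took either sign under another array scaling.

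Calls among sugar metabolism genes were mostly falls, at 17.6% of the list beside 3.19% of all genes. Rises were 2.94% of the list beside 3.15%. Of 34 genes of glycolysis, gluconeogenesis and storage sugars, 6 fell and 1 rose, though the falls were 1 to 3 without fasted deprived 1, fasted undeprived 1, fasted undeprived 2, fed deprived 1, fed deprived 2, fed undeprived 1 or fed undeprived 2. The aldolase gene aldo-1 changed by -0.63 ± 0.11, adjusted p = 0.0162, 7 of 8, while its second probe set gave -0.33, adjusted p = 0.08. The glyceraldehyde phosphate dehydrogenase genes gpd-3 and gpd-2, which are near copies, changed by -0.45 ± 0.08, adjusted p = 0.0176, 3 of 8, and by -0.38 ± 0.07, adjusted p = 0.0208, 3 of 8. tre-5, a trehalase gene, rose by 1.19 ± 0.13, adjusted p = 0.00289.

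Families that modify small lipophilic molecules changed in both directions. Of 73 cytochrome P450 genes, 7 rose and 7 fell (9.59% each), beside 3.15% and 3.19% of all genes. cyp-25A1 had levels of 7.51 and 7.18 in fed and 7.66 and 7.36 in fasted worms with cholesterol, against 6.51 and 6.06 in fed and 6.50 and 6.52 in fasted worms without it. All 4 deprived arrays were lower, by -1.03 ± 0.09, adjusted p = 0.00102. cyp-36A1 rose by 0.80 ± 0.07, adjusted p = 0.00127, cyp-33C8 by 1.09 ± 0.12, adjusted p = 0.00257 and cyp-33C4 by 0.91 ± 0.10, adjusted p = 0.00304. The rises were 4 without fasted deprived 1 or fasted undeprived 2, and the falls 3 to 4 without fasted deprived 1 or fasted undeprived 2. Of 64 UDP-glucuronosyltransferases, which conjugate hormones and foreign compounds, 3 rose and 6 fell, the falls being 3 without fasted deprived 1, fasted undeprived 1, fed deprived 1 or fed undeprived 2 and the rises 5 without fed undeprived 1. ugt-43 had levels of 6.998 and 7.11 in fed and 7.41 and 7.08 in fasted worms with cholesterol, against 5.43 and 5.90 in fed and 5.55 and 5.60 in fasted worms without it, a change of -1.53 ± 0.13, adjusted p = 0.000849 with no overlap. ugt-1, ugt-6 and ugt-4 changed by -1.23, -1.16 and 0.73.

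Of 45 glutathione S-transferases, 2 rose (4.44%) and 5 fell (11.1%), beside 3.15% and 3.19% of all genes. The falls were 2 to 3 without fasted deprived 1, fasted undeprived 2, fed deprived 1, fed deprived 2, fed undeprived 1 or fed undeprived 2, and the rises 0 to 1 without fasted deprived 1, fasted deprived 2, fasted undeprived 1, fasted undeprived 2, fed deprived 2 or fed undeprived 2. gst-42 changed by -0.76 ± 0.11, adjusted p = 0.00942, gst-10, an enzyme that detoxifies lipid peroxidation products, by -1.40 ± 0.23, adjusted p = 0.0136, 7 of 8, gst-30 by -0.47 ± 0.08, adjusted p = 0.0156, 5 of 8 and gsto-3 by 0.57 ± 0.10, adjusted p = 0.0172, 6 of 8. Of 30 short-chain dehydrogenases, 5 fell and dhs-16 rose, the falls being 1 to 3 without fasted deprived 1, fasted undeprived 1, fasted undeprived 2, fed deprived 1, fed deprived 2 or fed undeprived 2. dhs-7 changed by -0.89 ± 0.14, adjusted p = 0.0117, dhs-26 by -0.64 ± 0.11, adjusted p = 0.017, 6 of 8 and dhs-9 by -0.47 ± 0.10, adjusted p = 0.036, 2 of 8.

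Nuclear hormone receptor genes were close to the background. Of 259, 11 rose (4.25%) and 7 fell (2.70%), beside 3.15% and 3.19% of all genes. The falls were 0 to 4 without fasted deprived 1, fasted undeprived 1, fasted undeprived 2, fed deprived 1, fed deprived 2, fed undeprived 1 or fed undeprived 2. The rises were 7 without fasted deprived 1, fasted undeprived 1, fed deprived 1 or fed undeprived 2, and 7 without the replicate block. nhr-21 changed most among those named. Its levels were 5.33 and 5.19 in fed and 5.37 and 6.12 in fasted worms with cholesterol, against 6.58 and 6.94 in fed and 6.64 and 7.34 in fasted worms without it, and its change was 1.37 ± 0.15, adjusted p = 0.00263. nhr-121, nhr-63 and nhr-3 rose by 0.71, 0.53 and 0.66, a second nhr-3 probe set giving 0.35, adjusted p = 0.0711. Of 51 ABC transporter genes, 5 rose and 1 fell, the rises being 1 to 3 without fasted deprived 1, fasted undeprived 1, fasted undeprived 2, fed deprived 1, fed deprived 2, fed undeprived 1 or fed undeprived 2. pgp-1, an intestinal P-glycoprotein, changed by 0.60 ± 0.09, adjusted p = 0.0112, pmp-1, of the peroxisomal half-transporters, by 0.57 ± 0.09, adjusted p = 0.0136, 6 of 8, pgp-11 by 0.78 ± 0.14, adjusted p = 0.0173, 5 of 8 and pmp-5, another peroxisomal type, by -0.70 ± 0.12, adjusted p = 0.0143, 7 of 8.

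Defence genes gave calls in both directions. Of 59 lysozyme, saposin-like and other antimicrobial peptide genes, 8 rose and 11 fell, beside 3.15% and 3.19% of all genes. The rises were 3 to 5 without fasted deprived 1, fasted undeprived 2, fed deprived 1, fed deprived 2, fed undeprived 1 or fed undeprived 2, and the falls 3 to 6 without fasted deprived 1, fasted undeprived 1 or fasted undeprived 2. spp-31, a saposin-like gene, had levels of 7.63 and 7.32 in fed and 8.17 and 8.19 in fasted worms with cholesterol, against 8.64 and 8.57 in fed and 9.08 and 9.18 in fasted worms without it. All 4 deprived arrays were higher, by 1.04 ± 0.09, adjusted p = 0.00108. spp-4, of the same family, changed by -0.92 ± 0.14, adjusted p = 0.00911, and fip-2, of a family induced by fungal infection, by -0.80 ± 0.11, adjusted p = 0.00641. The lysozyme genes lys-1, lys-8 and ilys-5, named after their values were seen, fell more in fasted worms, as lys-2 did. Their effects were -0.70, -0.54 and -0.60 in fed and -2.05, -1.77 and -2.14 in fasted worms. The interaction adjusted p was 0.0247, 0.0389 and 0.0255, in that order. abf-5, likewise named, rose by 0.71 in fed and 1.89 in fasted worms, interaction adjusted p = 0.0468.

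Of 22 immune response markers, 6 fell (27.3%) and 1 rose (4.55%), with a median of -0.27. The shares over all genes were 3.19% and 3.15%. irg-1, a gene of the infection response that follows a block of translation, had levels of 5.51 and 5.76 in fed and 5.57 and 5.68 in fasted worms with cholesterol, against 7.05 and 6.65 in fed and 7.33 and 7.15 in fasted worms without it. The groups did not overlap, and its change was 1.42 ± 0.13, adjusted p = 0.00125. The falls included sysm-1 (-0.75, adjusted p = 0.00385), hrg-7, a secreted protease relative that signals heme status (-0.76, adjusted p = 0.00618), and K08D8.5 (-0.91, adjusted p = 0.0117). C-type lectins, secreted or surface sugar-binding proteins, were near the background, with 6 of 220 risen and 8 fallen. The rises were 3 without fasted undeprived 1, fed deprived 1, fed deprived 2, fed undeprived 1 or fed undeprived 2, and the falls 4 to 5 without fasted deprived 1, fasted undeprived 1, fasted undeprived 2, fed deprived 1, fed deprived 2 or fed undeprived 2. clec-10 changed by 1.39 ± 0.13, adjusted p = 0.00127, clec-233 by 0.66 ± 0.09, adjusted p = 0.00608, clec-160 by -0.63 ± 0.08, adjusted p = 0.0041 and clec-186 by -0.76 ± 0.10, adjusted p = 0.00634.

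Lysosomal protease genes mostly fell where they changed. Falls were 22.9% of the list and rises 2.86%, beside 3.19% and 3.15% of all genes. Of 35, 8 fell and 1 rose, with a median of -0.28, the falls being 4 to 5 without fasted undeprived 1, fasted undeprived 2, fed deprived 1, fed deprived 2, fed undeprived 1 or fed undeprived 2. asp-13, an aspartyl protease gene, had levels of 11.11 and 11.27 in fed and 10.37 and 10.52 in fasted worms with cholesterol, against 9.45 and 9.79 in fed and 8.59 and 9.08 in fasted worms without it. The deprived arrays were lower throughout, by -1.59 ± 0.08, adjusted p = 0.000172. asp-8 changed by -0.90 ± 0.11, adjusted p = 0.00431, and asp-4, a cathepsin-D-like gene that acts in necrotic cell death, by -0.65 ± 0.09, adjusted p = 0.00766. cpr-3, of the cathepsin B type, rose by 0.89 ± 0.08, adjusted p = 0.000904. Of 43 proton pump and autophagy genes, 2 rose and 1 fell: hlh-30, lmp-2 (0.47, adjusted p = 0.0359, 2 of 8) and, falling, epg-2, an autophagy cargo adaptor (-0.96, adjusted p = 0.0143, 7 of 8). Iron and heme genes gave 2 falls among 20, ftn-1 and hrg-7.

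Heat shock genes gave 1 rise (3.23%) and 2 falls (6.45%) among 31, beside 3.15% and 3.19% of all genes. hsp-17, a small heat shock protein gene, rose by 1.11 ± 0.15, adjusted p = 0.00648, and the stress-inducible hsp-16.2 and hsp-16.41 changed by -1.28 ± 0.29, adjusted p = 0.0379, 1 of 8, and by -1.74 ± 0.40, adjusted p = 0.0401, 2 of 8. Insulin-like peptide genes gave 2 rises among 24, ins-7 and ins-23 (0.51, adjusted p = 0.022, 4 of 8). Of 33 genes of insulin, TOR and AMPK signalling, only hlh-30 rose and only cst-1, a homologue of the fly kinase Hippo, fell (-0.79, adjusted p = 0.0259, 2 of 8). Aquaporins gave 1 rise and 2 falls among 10, aqp-8 (0.71, adjusted p = 0.0489, 0 of 8), aqp-10 (-0.52, adjusted p = 0.0128, 7 of 8) and aqp-2 (-0.64, adjusted p = 0.0488, 2 of 8).

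Transthyretin-related genes, a large family of small secreted proteins in nematodes, had the highest share of rises of any list. Of 40, 9 rose and 4 fell, beside 3.15% and 3.19% of all genes, the rises being 4 to 5 without fasted deprived 1 or fasted undeprived 2. ttr-21 had levels of 8.40 and 8.38 in fed and 8.07 and 8.08 in fasted worms with cholesterol, against 10.01 and 9.97 in fed and 10.82 and 10.58 in fasted worms without it. Its change was 2.11 ± 0.19, adjusted p = 0.00115, larger in fasted worms (1.60 in fed and 2.63 in fasted worms, interaction adjusted p = 0.0394). ttr-23, ttr-27 and ttr-29, named after their values were seen, also rose more in fasted worms. Their effects were 0.77, 0.59 and 0.76 in fed worms and 2.68, 2.14 and 2.69 in fasted worms. The interaction adjusted p was 0.0488, 0.0171 and 0.0131, in that order. ttr-44 moved the other way, with levels of 10.30 and 9.92 in fed and 10.25 and 9.79 in fasted worms with cholesterol, against 8.46 and 8.50 in fed and 8.42 and 8.09 in fasted worms without it. Its 4 differences were nearly alike, and its change was -1.70 ± 0.10, adjusted p = 0.000193. ttr-48 fell by 0.91 ± 0.08, adjusted p = 0.000835, and ttr-28 rose by 0.75 ± 0.09, adjusted p = 0.00406.

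Among cuticle genes there were falls and no rises. Of 147 cuticle collagen genes 9 fell (6.12%), beside 3.19% of all genes that fell and 3.15% that rose. The falls were 2 to 4 without fasted deprived 1, fasted undeprived 1, fed deprived 1, fed deprived 2 or fed undeprived 2. Besides dpy-14 and col-183, the falls included col-76 (-0.67, adjusted p = 0.0083), col-158 (-0.44, adjusted p = 0.0143, 6 of 8) and dpy-17 (-0.93, adjusted p = 0.0151, 5 of 8). Of 39 cuticlin and zona pellucida genes 4 fell (10.3%), and 0 to 2 without fasted deprived 1, fasted undeprived 1, fed deprived 1, fed deprived 2, fed undeprived 1 or fed undeprived 2. noah-1 and noah-2 encode extracellular proteins of the embryonic and moulting epidermis. noah-2 had levels of 7.96 and 8.07 in fed and 7.85 and 6.99 in fasted worms with cholesterol, against 6.27 and 6.56 in fed and 6.45 and 6.61 in fasted worms without it, a change of -1.25 ± 0.21, adjusted p = 0.0143, 7 of 8. noah-1 changed by -1.54 ± 0.31, adjusted p = 0.0268, 3 of 8, with effects of -2.41 in fed and -0.67 in fasted worms, interaction adjusted p = 0.0134. fbn-1, a fibrillin-like matrix gene, changed by -1.24 ± 0.26, adjusted p = 0.0285, 2 of 8, and a second, dimmer fbn-1 probe set by -0.45, adjusted p = 0.0399. cutl-2 changed by -0.43 ± 0.10, adjusted p = 0.0392, 1 of 8.

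Of 25 zygotic embryo genes, 2 fell and none rose: elt-1, the GATA factor that specifies epidermis (-0.75, adjusted p = 0.0169, 4 of 8), and nhr-25, an epidermal nuclear receptor (-0.71, adjusted p = 0.0404, 2 of 8), whose second probe set gave -0.10, adjusted p = 0.663. The summed signal of the 6 embryo markers was 441 to 552 with cholesterol and 266 to 413 without it. Deprived arrays were thus all lower in it than undeprived ones. The summed signal of all 25 genes of the embryo list did not show this, at 7592 to 8188 with cholesterol and 7872 to 9052 without it, with overlap. The part of embryos in the cuticle result was not tested. The 6 epidermis markers gave no call by limma (0 had an unadjusted p under 0.05), with a summed signal of 2860 to 5069 with cholesterol and 2886 to 4574 without it.

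Hedgehog-related and Patched-related genes, a family expanded in nematodes and tied to cuticle formation and sterol-sensing domains, gave calls in both directions. Of 81, 3 rose (3.70%) and 5 fell (6.17%), beside 3.15% and 3.19% of all genes. grd-5 had levels of 7.65 and 7.69 in fed and 6.17 and 5.86 in fasted worms with cholesterol, against 6.19 and 6.38 in fed and 4.86 and 4.80 in fasted worms without it. The deprived arrays were lower within each feeding state, with a change of -1.28 ± 0.10, adjusted p = 0.000632. wrt-10 changed by -1.08 ± 0.14, adjusted p = 0.00618, ptr-14 by -0.65 ± 0.09, adjusted p = 0.00723 and ptr-6 by 0.85 ± 0.11, adjusted p = 0.00537, with 0.54, adjusted p = 0.00723 at a dimmer ptr-6 probe set. The falls were 3 without fasted deprived 1, fasted undeprived 1, fed deprived 1, fed deprived 2 or fed undeprived 2, and the rises 1 without fed deprived 1.

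Most calls among muscle genes were falls, and all calls among neuropeptide and synaptic genes were rises. Muscle falls were 21.9% and muscle rises 9.38% of the list, beside 3.19% and 3.15% of all genes. Of 32 muscle genes, 7 fell and 3 rose, with a median of -0.19, the falls being 2 to 4 without fasted deprived 1 or fed deprived 1. The rises were 1 without fasted deprived 1, fasted deprived 2, fasted undeprived 1, fasted undeprived 2, fed deprived 2 or fed undeprived 1, and 1 without the replicate block. With probe sets whose names end in _s_at, _x_at or _r_at left out, 13 of the 32 muscle genes remained. A gene was left out if its highest-signal probe set had such a name, even where it had another. Of those that remained 1 rose and 1 fell, at a median of -0.07. Most of the muscle falls were thus not called without such probe sets. Whether these probe sets cross-hybridise was not tested. unc-87, a calponin-like filament protein, had levels of 10.45 and 10.47 in fed and 9.66 and 9.47 in fasted worms with cholesterol, against 9.65 and 9.78 in fed and 8.68 and 8.44 in fasted worms without it. Its change was -0.87 ± 0.10, adjusted p = 0.00318. The troponin genes unc-27 and tnt-2 changed by -1.01 ± 0.16, adjusted p = 0.0116, and by -1.17 ± 0.20, adjusted p = 0.0143, 6 of 8. myo-1, a myosin of the pharynx rather than the body wall, rose by 0.82 ± 0.12, adjusted p = 0.00835, and its dimmer probe set gave 0.34, adjusted p = 0.043. Of 8 body wall muscle markers 3 fell, with a summed signal of 4042 to 6781 with cholesterol and 2320 to 5079 without it.

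Of 48 neuropeptide and synaptic genes, 7 rose (14.6%) and none fell, with a median of 0.18. The shares over all genes were 3.15% and 3.19%. All 7 rises were under 1.5-fold. Their number was 1 to 4 without fasted deprived 1, fasted undeprived 2, fed deprived 1, fed deprived 2, fed undeprived 1 or fed undeprived 2 and 19 of the 48 were higher in all 4 matched differences, beside 14.3% of all genes. unc-18, a syntaxin-binding protein of synaptic release, had levels of 8.04 and 8.002 in fed and 8.70 and 8.62 in fasted worms with cholesterol, against 8.49 and 8.46 in fed and 9.31 and 9.12 in fasted worms without it. Its change was 0.50 ± 0.07, adjusted p = 0.009, but a second unc-18 probe set gave 0.05, adjusted p = 0.901. The FMRFamide-like neuropeptide genes flp-1, flp-9 and flp-2 changed by 0.49, 0.53 and 0.50. The 8 neuronal markers summed to 3631 to 4430 with cholesterol and 4316 to 4728 without it. The 23 intestinal markers gave 3 rises and 3 falls. The falls were 1 without fasted undeprived 2, fed deprived 1, fed deprived 2, fed undeprived 1 or fed undeprived 2, and 0 without the replicate block. pept-1, pgp-1 and mtl-1 are given above, and the proton exchanger gene nhx-2 rose by 0.79 ± 0.14, adjusted p = 0.0156, 7 of 8. The gut esterase gene ges-1 and the cathepsin-B-like gene cpr-6 changed by -0.69, adjusted p = 0.023, 2 of 8 and by -0.49, adjusted p = 0.0205, 3 of 8; both are named here to complete the falls, after their values were seen.

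Some lists gave no call at all. None of 41 germline and oocyte genes, 62 sperm genes, 48 respiratory chain genes or 62 cytosolic ribosomal protein genes passed by limma with Benjamini-Hochberg adjustment. At an unadjusted p under 0.05 the counts were 3, 9, 11 and 4, in that order. Ribosomal protein genes nevertheless leaned one way, 47 of 62 being higher in all 4 matched differences, at a median of 0.09. Under cyclic loess normalization that median became -0.02, so its direction depends on the array scaling. The respiratory chain median was 0.10, with 20 of 48 genes higher in all 4, beside 14.3% of all genes, and it was 0.04 under cyclic loess. Sperm genes leaned lower, at a median of -0.11. Of the 62, 14 were lower and 3 higher in all 4, beside 12.3% and 14.3% of all genes. Their summed signal was 7222 to 12490 with cholesterol and 6320 to 7421 without it, with overlap. The 23 msp genes, picked out after their values were seen, had a median of -0.58 and 0 calls. Among 59 mitochondrial ribosomal protein genes mrps-28 rose (0.51, adjusted p = 0.0221, 3 of 8, with 0.35, adjusted p = 0.0621 at a second probe set), and among 33 proteasome genes rpn-6.2 rose (0.53, adjusted p = 0.041, 0 of 8).

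F-box protein genes, whose products choose substrates for ubiquitin ligases, gave many falls, a count that hung on single arrays. Of 310, 30 fell and 11 rose, beside a background of 3.19% and 3.15%. The falls numbered 1 without fasted deprived 1 and 47 without fasted deprived 2, and 12 without the replicate block. The rises were 4 to 7 without fasted deprived 1, fasted undeprived 1, fasted undeprived 2, fed deprived 2 or fed undeprived 2, and 6 without the block. The 4 members with the smallest p all rose: fbxa-157 by 1.12 ± 0.15, adjusted p = 0.00585, fbxa-156 by 0.87 ± 0.12, adjusted p = 0.0067, fbxa-24 by 1.28 ± 0.18, adjusted p = 0.00767 and fbxa-44 by 0.68 ± 0.10, adjusted p = 0.00908.

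**Figure D4:**
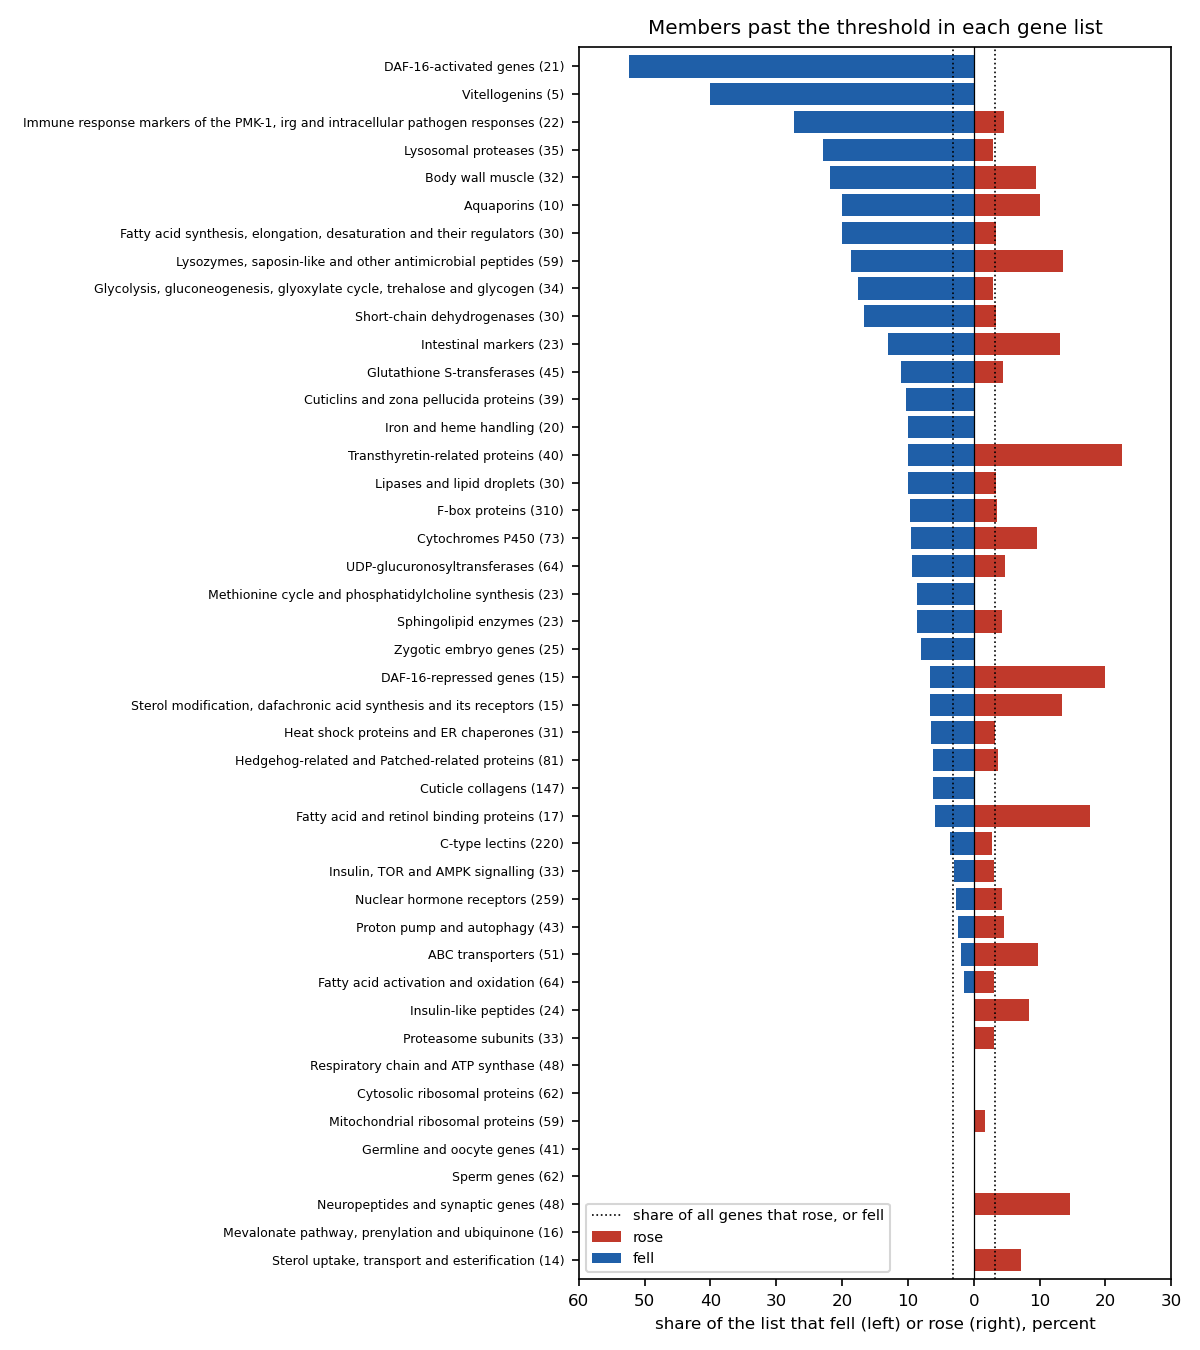
Share of each gene list (number of genes in brackets) that fell, to the left, or rose, to the right, in percent, with dotted lines at the shares of all genes. The DAF-16-activated genes reach furthest to the left, with 11 falls of 21, and the transthyretin-related genes furthest to the right, with 9 rises of 40.

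Most genes called in one feeding state had the same sign in the other. The effect sizes in fed and in fasted worms come from separate arrays, but their tests do not. Both tests came from a fit over all arrays with a shared error, so each gene had the same SE in both states. Passing in both states is therefore not independent replication. In fed worms alone 333 genes rose (1.95%) and 471 fell (2.75%), and in fasted worms alone 369 rose (2.16%) and 258 fell (1.51%). Of the 804 genes that passed in fed worms, 720 (89.6%) had the same sign in fasted worms and 234 (29.1%) passed there in that direction. Of the 627 that passed in fasted worms, 559 (89.2%) had the same sign in fed worms, and the 234 are 37.3% of them. Without the replicate block the probe sets called were 273 in fed worms, against 988 with it, and 249 in fasted worms, against 785. Over all genes the signs matched in 51.5%, but the median change was 0.05 in fed and -0.05 in fasted worms. Such opposite offsets lower the share of matching signs among genes that changed little, so 51.5% is a low baseline. Across the 17118 genes the changes correlated with r = 0.46, a description in which genes are not independent replicates.

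The common fit also held genes that neither state called. Of its calls, 184 rises and 186 falls passed in neither fed nor fasted worms alone, while 140 rises and 94 falls passed in both. A difference between states was called in 93 genes (0.543%). Of these, 39 had opposite signs in fed and fasted worms, 20 had the larger change in fed and 34 in fasted worms, and 31 were among the 1085 genes of the common response. The count of such differences depended on the setting, being 22 probe sets without the replicate block against 115 with it, and 14 with a pseudocount of 16. It was 82 to 167 under another array scaling, another prior, or with dim or possibly cross-hybridising probe sets left out. Leaving out 1 array gave 20 to 100, every array but fed undeprived 2 bringing it to 47 or less.

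The balance of rises and falls in fasted worms depended on one of the scalings tried. In fasted worms 59.2% of the called probe sets rose, against 47.6% after each array was centred on its brighter probe sets and 57.5% after cyclic loess. In the same order, the shares were 57.4%, 46.8%, 57.6% for the differences between states. They were 39.8%, 42.5%, 33.8% in fed worms and 47.4%, 41.7%, 42.9% for the common response.

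**Figure D5:**
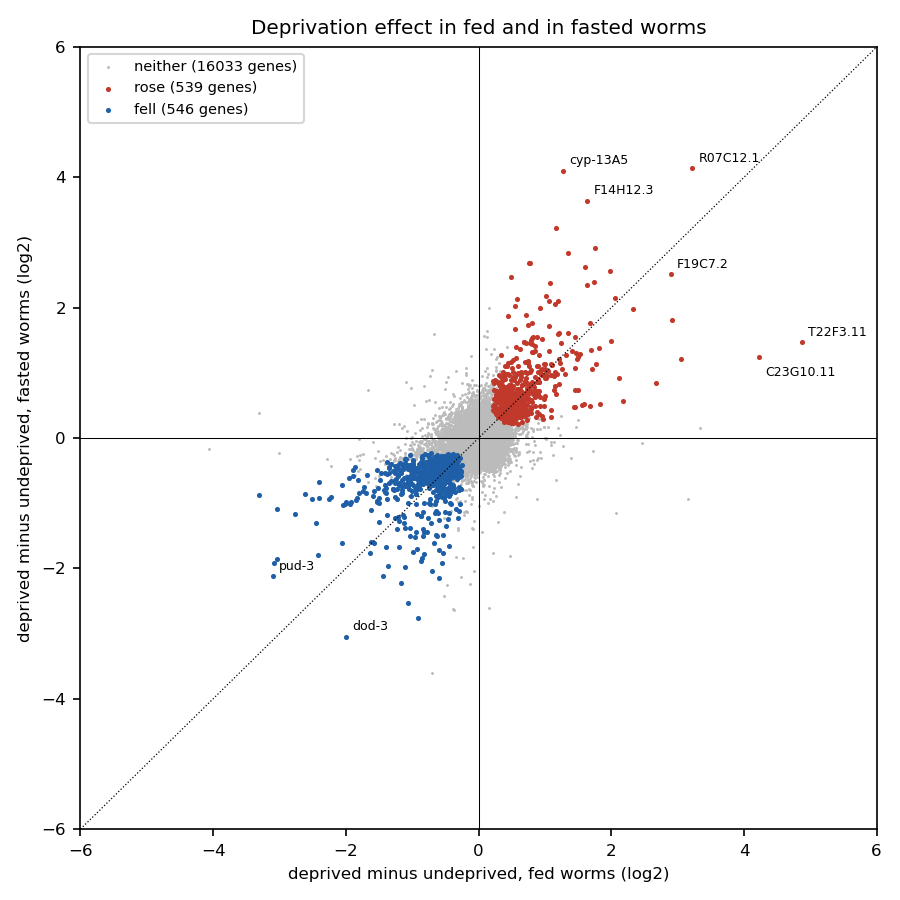
Deprivation effect of each of 17118 genes in fed worms (x axis) against fasted worms (y axis), both in log2 units and from separate arrays, with genes of the common response in red (539 rises) and blue (546 falls) and equality dotted. R07C12.1 and dod-3 changed strongly in both states, T22F3.11 mostly in fed and cyp-13A5 mostly in fasted worms.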

How the data were processed

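Transcript levels were measured in 8 samples of whole N2 worms on 1-colour Affymetrix arrays, from 100 ng of total RNA labelled with biotin, per the labels' protocols. The authors deposited 1 intensity per probe set and array, processed with RMA per the submitters' processing notes. RMA subtracts background, equalises the arrays' distributions and summarises probes, so a difference in total RNA between groups cannot be seen. The deposited intensities were on a linear scale. The RMA version, the build and a detection call were not given in the sources used here, and precision is limited by how few arrays there are.

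Of 22625 probe sets, 77 controls were left out. The platform annotation gave 1 symbol to 20766 of the 22548 tested, several to 887 and none to 895, and 20701 matched the RefSeq table of assembly WBcel235, used for names and gene order only. A gene was represented by its 1-symbol probe set with the highest mean (17118 genes). Values were taken as log2(signal + 1), which understates changes of dim genes. An additive limma 3.58.1 model in R 4.3.3 had deprivation, feeding state and replicate number as terms. Effects within a feeding state and their difference (the interaction) came from 1 mean per group with the replicate block. Tests were two-sided, adjusted by Benjamini-Hochberg over all probe sets. Tables and figures used Python 3.11.15, pandas 2.3.3 and matplotlib 3.10.9.

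Replicate numbers come from the sample titles. Their deviations from the group means correlated at 0.22 to 0.53 in all 6 pairs of groups, so the numbers were treated as pairing the samples. The fit was tested on simulated data. Genes were named by rule: the 10 largest rises and falls with the same sign in 4 matched differences, the 6 small rises and falls (under 1.5-fold) with the smallest p, up to 4 called members with the smallest p of each of 44 gene lists, and all members of the sterol transport, dafachronic acid and mevalonate lists. The comparison, the lists and the rule were chosen with earlier results of these data known. Alternatives were no replicate block, cyclic loess, centring on the brighter probe sets (1 in 3), leaving out the dimmest 40% and a pseudocount of 16. Another left out probe sets with names ending in _s_at, _x_at or _r_at, taken as possibly cross-hybridising. Further alternatives were a trended and robust prior, an average of the effects in the 2 feeding states, an added 1.5-fold limit, and leaving out each array.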

Additional observations from a re-analysis of the deposited data

Results flagged for a closer look

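In 13 of the 188 named genes, 1 of the 4 matched differences lay far from the other 3. Chance alone gives such a value in about 1 of 20 groups of 4. The far value was the highest of the 4 in F19C7.2 (3.24, fed pair 1), clec-10 (1.90, fasted pair 2), lipl-4 (-0.47, fed pair 2) and nhr-21 (1.75, fed pair 2). It was the lowest in K08D8.5 (-1.46, fed pair 1), aqp-2 (-1.26, fed pair 2), clec-186 (-1.11, fasted pair 1), cutl-2 (-0.70, fed pair 2), dhs-16 (0.23, fed pair 2), dhs-26 (-1.08, fed pair 2), idi-1 (-0.015, fasted pair 1), mvk-1 (-0.19, fed pair 1) and ttr-28 (0.48, fasted pair 2). Values are deprived minus undeprived on the log2 scale, with the feeding state and replicate number of the pair. idi-1 and mvk-1 did not pass the threshold; the other genes did.

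For 11 named genes the deprivation effect differed between feeding states by the interaction term of the limma fit. The fasted effect minus the fed effect was above 0 in F14H12.3 (2.00), col-183 (2.44), cyp-13A5 (2.83), fbxa-24 (0.97), ftn-1 (1.96), noah-1 (1.74), srlf-3 (2.06) and ttr-21 (1.02). It was below 0 in C23G10.11 (-2.99), T22F3.11 (-3.40) and lys-2 (-1.85). A positive value means a larger rise in fasted worms for the genes that rose and a smaller fall in fasted worms for those that fell, here col-183, ftn-1 and noah-1.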

How the results depend on the processing

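The common comparison called 1357 probe sets. Fewer passed without the replicate block (731), without possibly cross-hybridising probe sets (872, of fewer tested) and with at least a 1.5-fold change as well (732). More passed for the average of the 2 effects with 1 mean per group (2067). Leaving out 1 array gave 437 to 1484. Fed worms gave 988 calls, 273 without the replicate block, 495 with a pseudocount of 16 and 215 to 1109 with 1 array left out. Fasted worms gave 785, with 249, 509 and 260 to 831 in the same order. The interaction gave 115, with 22, 14 and 20 to 100. Every other alternative stayed within 1.5 times its count. Causes were not tested.

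Of the 188 named genes, 147 passed, 111 of them also without the replicate block and 89 in all 8 fits that left out 1 array. Over the alternatives, 2424 gene values kept their side of the threshold, 301 lost it, 6 gained it and none of the called changes turned its direction. Calls lost without the replicate number are no sign of a smaller effect. Signals near the dim end are compressed by the added 1.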

Other observations

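Some families stood out only after the values had been seen, so their counts describe these arrays and carry no test. Over all genes, 3.15% rose and 3.19% fell. Of 95 fbxb genes 18 fell and 0 rose, and of 44 fbxc genes 10 fell and 1 rose. The fbxb falls were 0 to 31 with 1 array left out (0 without fasted deprived 1 and 31 without fasted deprived 2) and 8 without the replicate block, and the fbxc falls 0 to 12 with 1 array left out (0 without fed deprived 1) and 3 without the replicate block. Skp1-related genes, whose products link F-box proteins to the ligase, gave 6 falls and 2 rises among 19, the falls being 1 to 5 with 1 array left out (1 without fasted deprived 1, fed deprived 2 or fed undeprived 2) and 1 without the replicate block. Genes named sdz, for zygotic genes that depend on the maternal factor SKN-1, gave 9 falls and 0 rises among 32, the falls being 2 to 9 with 1 array left out (2 without fasted deprived 1 or fed undeprived 2) and 5 without the replicate block. The summed embryo marker signal given above was lower without cholesterol for 6 markers and overlapped for the list of 25 genes, and its part in these families was not tested. Of 58 nlp neuropeptide genes, 8 rose and 0 fell, the rises being 1 to 5 with 1 array left out (1 without fasted deprived 1 or fasted undeprived 2) and 4 without the replicate block.

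Neighbouring genes changed in the same direction in several places. In gene order on assembly WBcel235, ttr-27, ttr-28 and ttr-29 rose side by side, ttr-27 and ttr-29 more in fasted worms. The genes skr-13, skr-9 and skr-8 fell side by side. So did fbxb-2, fbxb-115 and fbxb-1. Whether these neighbours share probes was not tested.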
